A study of Mus musculus with 2 samples.

Results

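The BCL-2 family decides whether a lymphocyte under stress or short of survival signals lives or dies at the mitochondrion. The members examined were 10 genes of the mouse family, and 9 of them could be followed through 31 probe sets, out of 18193 genes and 45101 probe sets on the array. They were taken by gene name: every probe set whose only symbol in the platform annotation is a family member was used, on both arrays. The genes were Bcl2, Bcl2l1, Bcl2l2 and Mcl1, which protect cells, Bak1, which opens the mitochondrial outer membrane, and Bcl2l11, Bid, Bbc3 and Pmaip1, which trigger death. Bax, the other gene of the membrane-opening pair, was not analysed here.

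The study compared T helper 2 (Th2) cells of Ecm1 knockout mice with those of wild-type mice, on 1 Affymetrix array each. Ecm1 encodes a secreted matrix glycoprotein, and the question was how loss of it alters Th2 transcripts. Both groups are labelled as C57BL/6, female and kept to 6 weeks of age. Spleen cells were selected magnetically with an antibody to CD4 and grown for 4 days on anti-CD3 (3 µg/ml) with anti-CD28 (2 µg/ml), IL-4, anti-IFN-γ and anti-IL-12 (10 µg/ml of each of the last 2). The IL-4 dose is 10 ng in a label whose volume is garbled. The knockout's deleted region, whether the loss is limited to a cell type, and how many animals were pooled per array, if any, are not stated in the sources. With 1 array per group there is no test, no SD between animals and no p-value, and every difference below describes these 2 arrays.

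Survival members of the family (Bcl2, Bcl2l1, Bcl2l2, Mcl1) hold the outer mitochondrial membrane closed by binding the membrane-opening proteins Bax and Bak1 and the death triggers. The triggers share only the short BH3 segment with the rest of the family, and they act by occupying the survival proteins or by activating Bax and Bak1 directly. Once the membrane opens, cytochrome c reaches Apaf1 and starts the caspases. In T cells Bcl2 is kept up by interleukin-7 and related cytokines, Bcl2l1 (BCL-XL) is induced by CD28 signals, Mcl1 is needed by T cells at all stages, and Bcl2l11 (BIM) removes cells when an immune response ends.

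Checks of the labels came first. Ecm1 read 19.3 in knockout cells and 29114.7 in wild-type cells. The Y-linked Eif2s3y read 2214.4 in knockout cells and 25.0 in wild-type cells on its brighter probe set, and the 3 probe sets of Xist, the RNA of the inactive X chromosome, stood at 38.7%, 48.0% and 44.2% of wild type in the knockout. Y-linked signal was thus present on the knockout array, whereas the labels describe females. Sample descriptions name liver, but all 5 hepatocyte genes examined were below the floor on both arrays, and Alb read 24.1 in knockout and 4.8 in wild-type cells. T cell markers were present on both arrays, yet all 9 measured were lower in the knockout, with a summed signal of 51470.4 against 96083.6 in wild type. B cell markers summed to 34391.2 in the knockout and 17009.2 in wild-type cells. Of these 9 genes 8 were higher, and Pax5 was below the floor. All 8 plasma cell markers were higher, by value or by bound, and summed to 89348.8 in the knockout against 38858.3 in wild type. Macrophage markers summed to 11342.1 against 1751.4, in the knockout mostly from Lyz1 (4560.9 against 467.8) and Lyz2 (2796.2 against 275.5). Of these 12 genes 8 were measured and higher, 3 reached the floor in the knockout alone, and Itgam was below it on both arrays. CD8 T cell and natural killer markers summed to 24371.3 against 51900.6, most of it from Gzma (8692.4 against 29033.8) and Gzmb (14331.3 against 19512.5). Of the 7 measured in this list 6 were lower and Eomes was higher (304.8 against 256.8) by their brightest probe sets. The probe sets of Cd8a and those of Eomes went both ways. Of 5 neutrophil markers 3 were below the floor on both arrays and S100a8 in wild type, which left Mmp8 (299.6 against 97.9). The 4 erythroid markers were below the floor on both arrays. In bulk RNA, fewer cells of a type and less RNA per cell cannot be told apart, and the part of these shifts in the differences of the BCL-2 family was not tested.

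Signals are linear intensities. A probe set was taken as measured where it reached the floor, the array's median signal (65.5 in the knockout, 69.2 in wild type), on both arrays. Differences are log2 signal in knockout minus wild type, centred on the median over all measured probe sets, which was -0.10 before centring. A gene is represented by its brightest probe set, and 1 log2 unit is 2-fold. Probe sets of 1 gene differed with a technical SD of 0.36 on the log2 scale (4657 genes), which covers neither animals, nor cultures, nor arrays. Of the 31 family probe sets, 24 were measured, 3 reached the floor in the knockout alone and 4 on neither array. Signals of different probe sets are not on a common scale, so genes are compared by their differences and not by their levels.

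**Figure D1:**
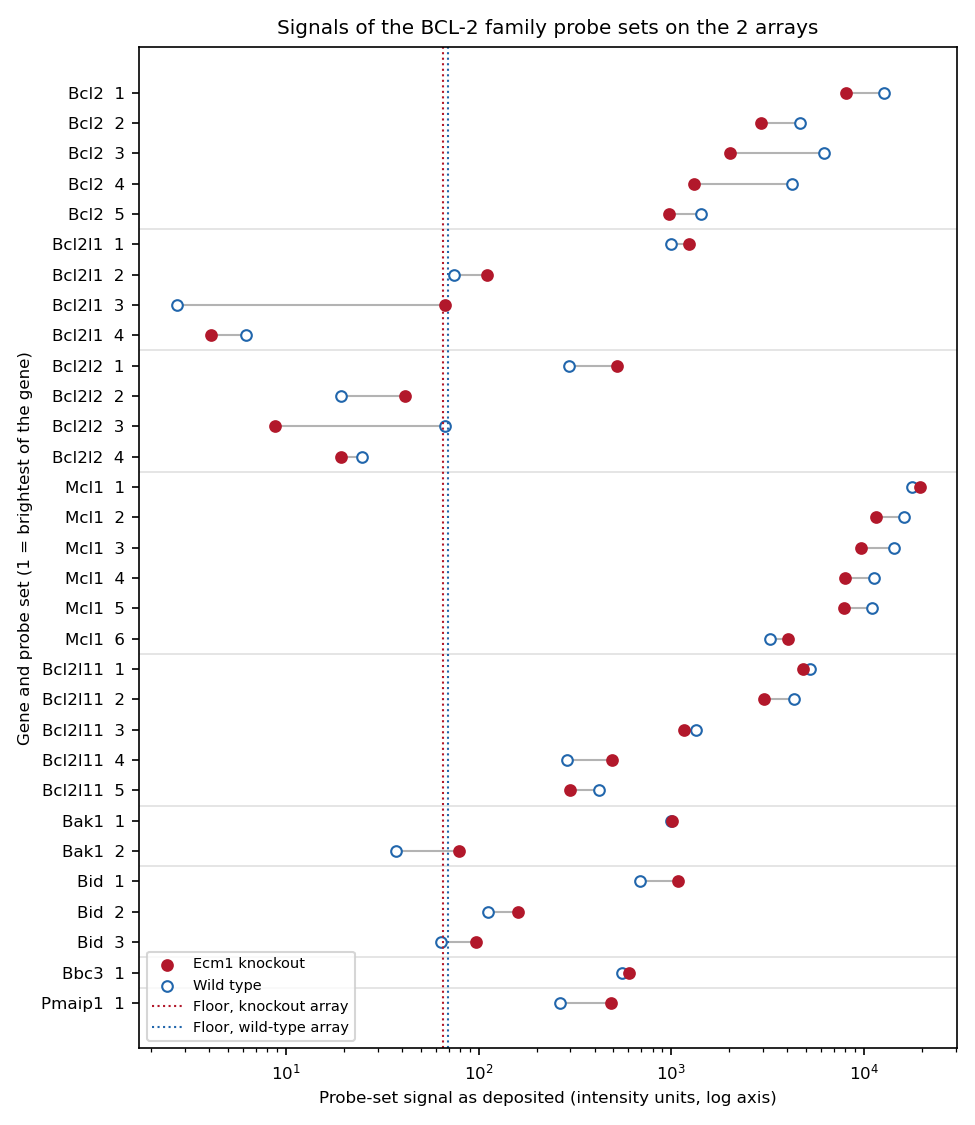
Deposited signal (intensity units, log axis) of each of the 31 family probe sets, numbered from the brightest of each gene, with the Ecm1 knockout as filled red circles, wild type as open blue circles and dotted lines at the floors. The knockout point lies left of wild type in all 5 rows of Bcl2 and right of it in the brightest row of Pmaip1, Bcl2l2 and Bid.

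None of the 9 genes was 2-fold apart between knockout and wild-type cells. Across the array 11.6% of 10144 measured genes were, 7.15% higher in the knockout and 4.45% lower. By their brightest probe sets 7 members were above 0 and 2 below it, against 53.1% of all measured genes above 0. By single probe sets the balance was not the same, with 11 higher and 13 lower among the 24, and with probe sets averaged 4 of 7 measured members were above 0. The members' median difference was 0.24, beside 0.04 over all measured genes. From high to low the order was Pmaip1 (0.99), Bcl2l2 (0.93), Bid (0.75), Bcl2l1 (0.42), Mcl1 (0.24), Bbc3 (0.23), Bak1 (0.12), Bcl2l11 (-0.02) and Bcl2 (-0.56). The gap between neighbours in that order was at most 0.33 down to Bcl2l11, and 0.54 between Bcl2l11 and Bcl2. A difference between 2 genes has an SD of 0.51 from probe-set error alone, taken over genes of all signal levels. Sorting makes the gaps between neighbours small, so these gaps cannot show how firm the order is. Of the 9 members 5 lay further from 0 than 1 technical SD, as did 52.3% of all measured genes.

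**Figure D2:**
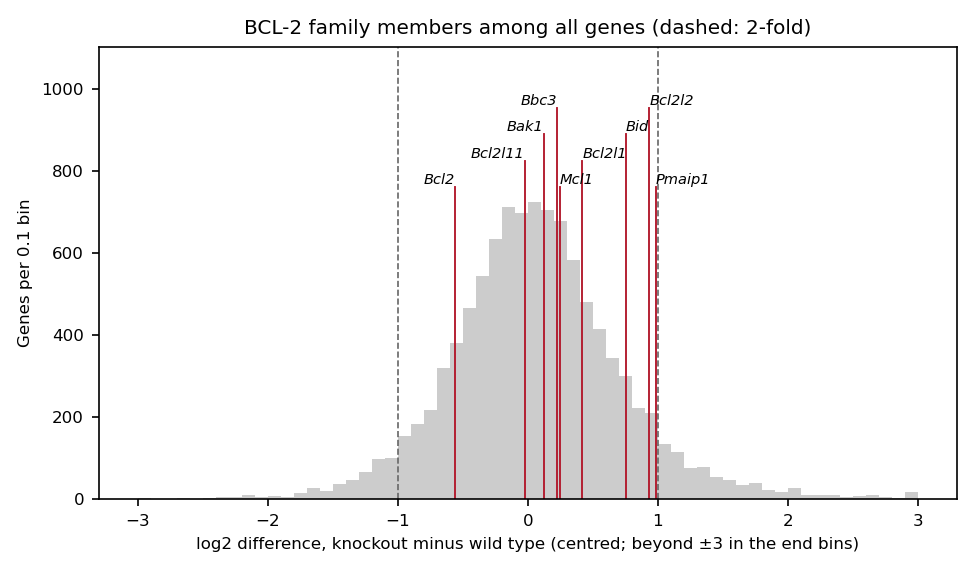
Histogram of the centred log2 difference (knockout minus wild type) of 10144 measured genes in bins of 0.1, with a red line for each of 9 family members and dashed lines at 2-fold. All 9 lines fall between the dashed lines, from Bcl2 at -0.56 to Pmaip1 at 0.99.

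Among the survival genes, Bcl2 was lower and the other 3 were higher by their brightest probe sets. Bcl2, the founding survival gene of the family, had 5 measured probe sets, and all 5 were lower in the knockout. The brightest read 8061.7 in knockout cells and 12772.7 in wild-type cells, a difference of -0.56 (1.48-fold lower). The second read 2922.1 against 4640.6 (-0.56) and the dimmest 972.4 against 1421.8 (-0.45), so these 3 lay within 0.12 of one another. The remaining pair stood apart from them. One read 2018.0 in knockout cells and 6191.3 in wild-type cells (-1.51, 2.86-fold lower), and the other, of the less specific _x_at type, 1311.0 against 4232.8 (-1.59, 3.01-fold lower). These 2 were the only family probe sets at least 2-fold apart, among 24 measured, where 11.9% of all measured named probe sets were 2-fold apart and 4.68% were 2-fold lower. Bcl2's probe sets thus ran over a range of 1.14 log2 units. Of 1935 genes with at least 3 measured probe sets the median range was 0.64, and 15.7% had a range as wide as Bcl2's. A range tends to widen with the number of probe sets, and these genes include ones with fewer than 5. Of 202 genes with 5 measured probe sets, 31 (15.3%) had all of them lower in the knockout. With all probe sets averaged in place of the brightest, Bcl2 was at -0.93, still short of 2-fold. T cell markers had a median of -0.77 on the same arrays, with Cd3e at -0.77 and Cd4 at -1.59.

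The Bcl2 promoter is shown because Bcl2 was the one member lower in all of its probe sets. The window is RefSeq's, on build GRCm38.p6, from 250 bases before to 50 after the gene start, at chr1:106714241-106714540 on the minus strand, and reads 5′ to 3′. Capitals mark matches to the GC box GGGCGG, the core recognised by SP1 and Krüppel-like factors, on either strand.
Bcl2: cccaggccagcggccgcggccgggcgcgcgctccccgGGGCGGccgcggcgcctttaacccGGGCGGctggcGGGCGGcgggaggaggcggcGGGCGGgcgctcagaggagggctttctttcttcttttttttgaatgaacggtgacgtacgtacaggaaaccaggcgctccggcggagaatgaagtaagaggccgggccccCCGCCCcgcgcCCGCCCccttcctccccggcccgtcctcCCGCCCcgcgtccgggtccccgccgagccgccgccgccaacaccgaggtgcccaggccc
The window is 76.0% G and C, against a median of 52.7% over all 32851 windows, and holds 7 GC boxes. A GC box was found in 35.7% of all windows. Matches to the CRE (TGACGTCA), the STAT-binding GAS (TTCNNNGAA), the FOXO site (TGTTTAC) and 1 form of the E2F site (TTTGGCGC) were also searched on both strands. None of these letters occurs in this window, while they occur in 1.79%, 8.30%, 3.65% and 0.514% of all windows, in that order. A match is a run of letters and not evidence of binding.

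Bcl2l1, which encodes BCL-XL, was slightly higher in the knockout. Its brightest probe set read 1238.8 in knockout cells and 995.5 in wild-type cells (0.42, 1.34-fold). A second read 110.5 against 74.1 (0.68), close to the floor. Another reached the floor only in the knockout (67.2 against 2.7), which leaves a bound of 0.06, and the last was below the floor on both arrays. Bcl2l1 and Bcl2, close relatives with the same protective role, thus lay 0.98 apart in their differences and on opposite sides of 0.

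Bcl2l2, which encodes BCL-W, had a single measured probe set. It read 524.8 in knockout cells against 295.0 in wild-type cells (0.93, 1.91-fold higher), and 8.55% of all measured genes were at least as high. Its other 3 probe sets were under the floor on both arrays, with 41.5, 8.8 and 19.3 in the knockout and 19.3, 66.6 and 24.9 in wild type, so the value rests on 1 probe set.

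Mcl1, whose product is made and degraded quickly, had 6 measured probe sets, and they did not go one way. The brightest read 19557.4 in knockout cells and 17725.2 in wild-type cells (0.24), and the dimmest 4052.0 against 3250.7 (0.42). The other 4 were lower in the knockout, within a narrow span. The one of them without the _x_at suffix read 7887.5 against 11060.1 (-0.38), and the 3 of the _x_at type 11525.9, 9656.1 and 7976.3 in the knockout against 16231.0, 14303.8 and 11316.4 in wild type (-0.39, -0.46 and -0.40). The median over the 6 was -0.39, opposite in sign to the brightest, and their average on the log2 scale put Mcl1 at -0.16. Mcl1 thus has no settled direction on these arrays. Probe sets of a gene disagreed in sign for many genes: of the 1935 genes with at least 3 measured, 51.5% had all on one side of 0.

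**Figure D3:**
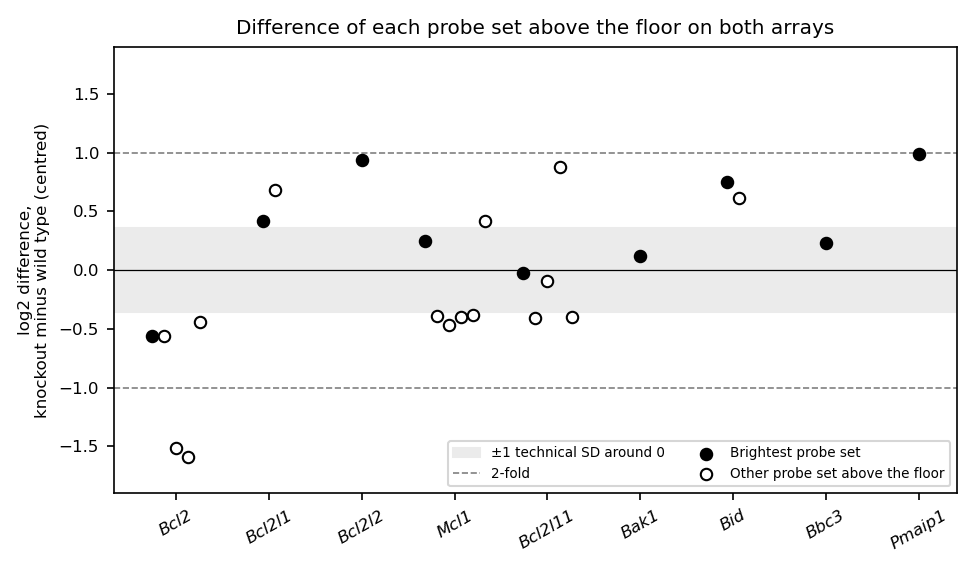
Centred log2 difference (knockout minus wild type) of each of the 24 measured family probe sets, with the brightest of each gene filled, the others open, a grey band at 1 technical SD (0.36) either side of 0 and dashed lines at 2-fold. Probe sets of Bcl2 form a group of 3 near -0.5 and a pair near -1.5, and those of Mcl1 and Bcl2l11 lie on both sides of 0.

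Bak1, the membrane-opening member that could be followed, was nearly the same on both arrays. Its brightest probe set read 1010.2 in knockout cells and 997.5 in wild-type cells (0.12, 1.09-fold). A second, of the _s_at type, read 79.2 against 37.3, below the floor in wild type, and gave a bound of 0.30. With both averaged, Bak1 was at 0.66, a value that draws on that wild-type signal below the floor.

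Of the 4 death triggers, Bcl2l11 was level in its brightest probe set, Bbc3 slightly higher, and Bid and Pmaip1 higher by less than 2-fold. Bcl2l11 encodes BIM, the trigger that ends T cell responses and binds all the survival proteins. Its brightest probe set read 4841.9 in knockout cells and 5287.5 in wild-type cells (-0.02). The next 2 in brightness read 3052.3 against 4346.5 (-0.41) and 1172.8 against 1339.5 (-0.09), and the dimmest 299.7 against 424.2 (-0.40). One of its 5 probe sets went the other way, with 493.6 in the knockout and 289.1 in wild type (0.87). Bcl2l11 is spliced into several forms, and the sources do not say which of them each probe set detects. The range of 1.28 log2 units across its probe sets was the widest in the family. Of genes with at least 3 measured probe sets 10.7% had one as wide, though these include genes with fewer than 5.

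Bid, which caspase-8 cleaves to carry a death receptor signal to the mitochondrion, was higher in both measured probe sets. The brighter read 1085.9 in knockout cells and 692.7 in wild-type cells (0.75, 1.68-fold), and the dimmer 160.0 against 112.5 (0.61). Its last probe set read 97.2 in knockout cells and 64.1, under the floor, in wild-type cells, with a bound of 0.59. The 2 measured probe sets of Bid thus gave 0.75 and 0.61, and the bound of 0.59 is only a lower limit. Of all measured genes 12.8% were at least as high as Bid. Casp8, the caspase that cleaves Bid, read 3906.1 in knockout and 4338.9 in wild-type cells (-0.05).

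Bbc3 encodes PUMA and Pmaip1 encodes NOXA, both of which p53 induces. Bbc3 had 1 probe set, with 602.2 in the knockout and 552.5 in wild type (0.23). Pmaip1 also had 1, with 488.1 in the knockout and 264.6 in wild type (0.99, 1.98-fold higher), the largest difference of the family. It sits at the 2-fold line, passing it at 1.01 after quantile normalization and 1.04 after loess and falling to 0.88 without centring. NOXA binds MCL1 with preference, and Mcl1 gave values on both sides of 0. For genes whose dimmer probe set had a mean log2 signal between 8 and 10, the range in which Pmaip1 and Bcl2l2 lie, the technical SD was 0.35 (1839 genes), and 0.26 for brighter pairs (1240 genes). Of all measured genes 7.41% were at least as high as Pmaip1.

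Bcl2l11 and Bbc3 each have a promoter window with a FOXO match, shown because FOXO factors are known to induce both genes and because transcripts of Foxo1 and Foxo3 were measured here. Capitals mark GC boxes and the FOXO site TGTTTAC or its reverse complement. The Bcl2l11 window is at chr2:128125788-128126087 and the Bbc3 window at chr7:16310011-16310310, both on the plus strand of GRCm38.p6, from RefSeq, 5′ to 3′.
Bcl2l11: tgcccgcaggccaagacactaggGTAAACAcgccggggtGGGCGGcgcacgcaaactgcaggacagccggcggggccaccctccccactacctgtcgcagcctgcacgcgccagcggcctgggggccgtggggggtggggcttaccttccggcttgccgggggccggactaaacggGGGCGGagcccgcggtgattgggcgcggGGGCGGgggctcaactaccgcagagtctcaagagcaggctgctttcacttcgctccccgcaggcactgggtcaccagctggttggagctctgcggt
Bbc3: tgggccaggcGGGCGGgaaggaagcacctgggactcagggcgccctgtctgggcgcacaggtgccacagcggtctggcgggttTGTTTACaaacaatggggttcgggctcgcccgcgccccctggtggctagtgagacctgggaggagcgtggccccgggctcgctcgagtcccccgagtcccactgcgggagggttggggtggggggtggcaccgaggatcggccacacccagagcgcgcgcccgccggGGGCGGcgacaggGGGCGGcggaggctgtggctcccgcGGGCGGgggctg
The FOXO match begins at base 24 of the Bcl2l11 window and base 84 of the Bbc3 window, and 3.65% of all windows hold one. RefSeq gives Bcl2l11 another start and Bbc3 another 2, whose windows hold no FOXO match. Foxo1 read 2485.4 in knockout cells and 3642.6 in wild-type cells (-0.45, and up to -0.33 in its other probe sets). Foxo3 read 772.2 against 1487.6 (-0.84, and -0.37 in its other probe set). Bcl2l11 and Bbc3 were at -0.02 and 0.23, and control of them by FOXO factors was not tested. Of the 14 windows for 9 genes of the family, including Bax but not Pmaip1, none held a CRE, a GAS or the E2F form searched. Among all windows 1.79%, 8.30% and 0.514% held one, in that order. At such shares 14 windows may well hold none, so this does not set the family apart.

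None of the other BCL-2 relatives measured on both arrays was 2-fold apart, where 11.6% of all measured genes were. Of 11 further death-promoting or less characterised members named on the array, 8 were measured, 5 above 0 and 3 below, with a median of 0.04 that turned to -0.07 without centring. After loess 1 of the 8 was 2-fold higher, and with no floor 3 of 11 were. With no floor 28.2% of all genes were 2-fold apart in either direction. Bok, a BAX-like member, reached the floor in the knockout alone (73.1 against 12.6), so its bound of 0.18 leaves the size of its difference unknown. Bmf, a BH3-only trigger released when cells detach, read 268.2 in knockout cells and 152.5 in wild-type cells (0.92). Bcl2l14 read 90.6 against 180.6 (-0.89), close to the floor in the knockout. Both signals were dim. For genes whose dimmer probe set had a mean log2 signal below 8, the technical SD was 0.43 (1578 genes). Bad, a trigger held in check by phosphorylation, was at 0.14, and the hypoxia-induced Bnip3 read 6129.7 against 8640.9 (-0.39). The neuronal trigger Hrk was below the floor on both arrays, as was the survival gene Bcl2l10.

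Among caspases and genes of cytochrome c release, 1 of 15 measured was 2-fold apart, beside 11.6% of all measured genes. Above 0 were 10 of the 15, beside 53.1% of all measured genes. The list is not limited to steps after the mitochondrion, since it includes Casp8. The median was 0.29, and 0.12 to 0.27 over the alternatives, and none was 2-fold apart without centring or without _x_at and _s_at probe sets. Htra2, a mitochondrial protease released during apoptosis, read 815.5 in knockout cells and 417.6 in wild-type cells (1.07, and 1.25 in its other probe set). Diablo, whose released product blocks the inhibitors of apoptosis, read 1145.6 against 658.7 (0.90), and Aifm1, a mitochondrial flavoprotein, 1591.0 against 993.2 (0.78). Cytochrome c (Cycs) was at 0.46, with all 3 probe sets between 0.46 and 0.75, whereas Apaf1 was at -0.02, Casp9 at 0.29 and Casp2 at -0.48. The caspase inhibitors were all within 2-fold, 4 of 7 above 0. Birc5, which acts in mitosis as well, read 7878.7 in knockout and 5404.7 in wild-type cells (0.65), and Xiap 3787.0 against 5497.5 (-0.43, and up to 0.04 in its other probe sets). Birc3 was at -0.26.

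Genes that p53 induces were on the whole above 0, without a common direction at the extremes. Of 16 measured, 12 were above 0, and 5 were past 2-fold, 3 of them higher and 2 lower in the knockout. Across the array 53.1% of measured genes were above 0, 7.15% were 2-fold higher and 4.45% were 2-fold lower. The median was 0.46 (0.36 to 0.51 over the alternatives). Cdkn1a, the cell cycle inhibitor p21, read 5359.5 in knockout cells and 1665.6 in wild-type cells (1.79, the same in its other probe set). Gtse1 was at 1.27 and the stress gene Sesn2, which ATF4 also induces, at 1.11. Its relative Sesn1 was at -1.45, and the death receptor Fas read 361.8 in the knockout against 858.6 in wild type (-1.14). Pmaip1 at 0.99 and Bbc3 at 0.23 are themselves p53 targets. They lie inside this spread, but so does every measured member of the family, so this does not set them apart. Transcripts of p53 itself were not analysed here.

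Upstream regulators and survival receptors differed in both directions. Among 19 measured regulators of family transcripts or proteins, 7 were above 0 and 12 below, with a median of -0.25 (-0.35 without centring to -0.12 with probe sets averaged). Trp73, a p53 relative, read 147.7 against 79.1, the wild-type signal lying near the floor, so that its difference is uncertain. Atf4 was at 0.90. Runx1, a factor of T cell development, read 1249.3 in knockout cells and 2525.8 in wild-type cells (-0.91), with all 6 probe sets between -1.13 and -0.45. Stat5b was at -1.06 and Stat5a at -0.48, where the other probe set of Stat5b was at 0.17. STAT5 carries the interleukin-2 and interleukin-7 signals that induce Bcl2, Bcl2l1 and Mcl1. Among 11 measured receptors, Il7r read 6173.7 in knockout cells and 17809.5 in wild-type cells (-1.43, and -2.59 in its other probe set), and Cd28 4167.7 against 9113.1 (-1.03). Il2ra went the other way, with 10047.2 in the knockout and 6478.3 in wild type (0.74). The B cell survival receptor Tnfrsf13c read 2513.5 against 831.4 (1.70), and the plasma cell receptor Tnfrsf17 226.2 against 19.0 (a bound of 1.81). Of the 11 receptors 4 were above 0 and 7 below, beside 53.1% of all measured genes above 0. The 4 were Il2ra, Tnfrsf9 (0.03), Tnfrsf13b (0.88) and Tnfrsf13c, so the list joins T cell and B-lineage receptors. T cell markers as a list were lower and B-lineage markers higher on the same arrays, and what this contributed to the family's values was not tested.

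**Figure D4:**
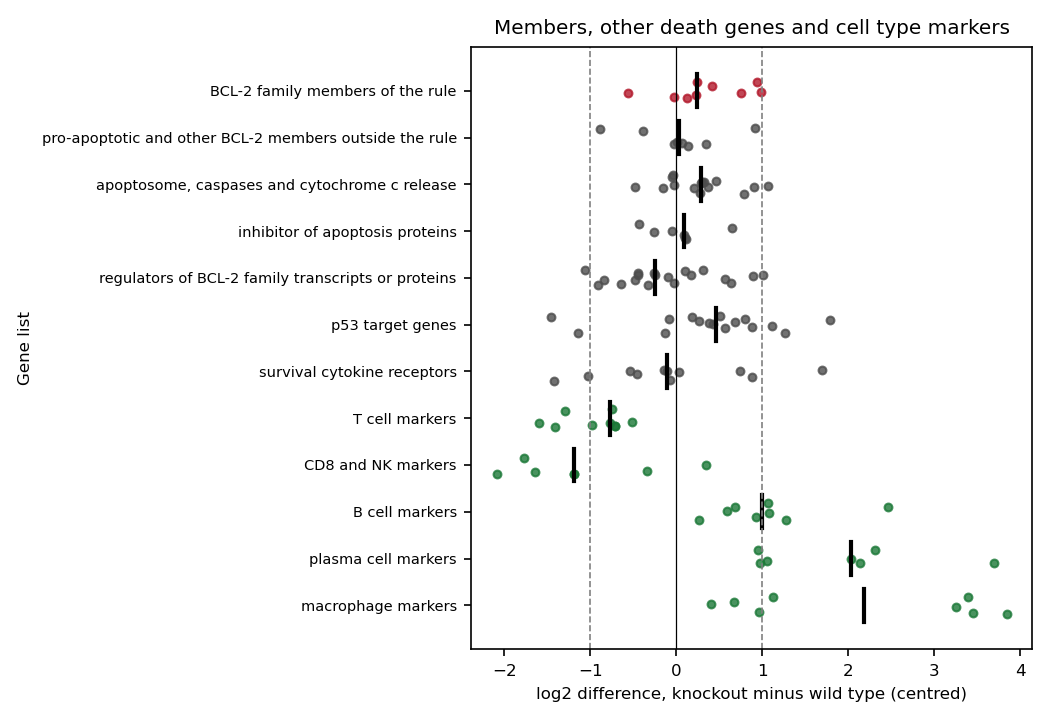
Centred log2 difference (knockout minus wild type) of each measured gene, by list, for the family (red), other death and survival genes (grey) and markers of cell types (green), with black bars at the medians and dashed lines at 2-fold. The family lies between -0.56 and 0.99, T cell markers lie wholly below 0 (median -0.77), and B cell, plasma cell (2.04) and macrophage markers (2.19, or 1.12 without _x_at and _s_at probe sets) lie wholly above it.

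Over all 7 lists of related genes, 11 of 76 measured genes were at least 2-fold apart (14.5%), 6 higher and 5 lower, beside the 11.6% of all measured genes given above. Without centring the split turned to 4 higher and 6 lower. The median of the 76 was 0.10.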

How the data were processed

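RNA of 2 samples was measured, 1 Ecm1 knockout and 1 wild type. Per the labels' protocols, the one-cycle Affymetrix assay was used, with biotin labelling and 3 µg of starting RNA. The deposited values are linear signal intensities per probe set. The summarisation software is not given in the sources. The mean of the central 96% of values was 500.004 on both arrays, so the deposited intensities carry a global scaling, under which a rise in abundant transcripts lowers the other values. The number of arrays limits the precision.

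Of 45101 probe sets, 34945 had 1 gene symbol and 932 several in the platform annotation, 9160 had none and 64 were controls. Differences were centred over the 20834 non-control probe sets that reached both floors. Where a gene reached only one floor, the difference is a bound computed with the missing signal set to that floor. Calculations used Python 3.11.15 with pandas 2.3.3 and numpy 2.4.6, and the procedure was tested on simulated data. No test was run between groups. All members are named, with the genes of each list of death and survival genes that were 2-fold apart or among its 3 largest differences, and Ecm1, Xist and Eif2s3y as checks. Other list genes named, such as Bad, Casp8, Foxo1, Apaf1 and Atf4, and the marker genes named, were chosen for their role after values were seen, and the promoter motifs were also chosen then. The members and lists were chosen with earlier results of these data known. Alternatives were no centring, quantile normalization, loess (span 0.3), no floor, a floor at the 70th percentile, probe sets averaged, no _x_at or _s_at probe sets, and log2(signal + 32).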

Additional observations from a re-analysis of the deposited data

How the results depend on the processing

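No paired analysis was possible because neither group has a second array. No family member was 2-fold apart as reported or in 6 of 8 alternatives. After quantile normalization and after loess the count was 1, namely Pmaip1. The family's median stayed between 0.14 and 0.26 in the 8 alternatives, and the count of related genes 2-fold apart between 10 and 14, against 11. Of 71 values of single members under the alternatives, 68 moved by less than the technical SD. The other 3 came with probe sets averaged: Bcl2 at -0.93, Mcl1 at -0.16 and Bak1 at 0.66. Mcl1, with probe sets averaged, was the only member whose sign changed in the 8 alternatives. At the higher floor (280.6 in the knockout, 308.8 in wild type) Pmaip1 and Bcl2l2 had bounds of 0.74 and 0.84, and with probe sets averaged Bcl2l2 was below the floor on both arrays and Bcl2l1 had a bound of 0.28. With no floor 28.2% of all genes were 2-fold apart. Of genes 2-fold apart, 61.6% were higher in the knockout after centring and 49.0% without it.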
